A study of Gallus gallus with 3 samples.

Results

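The chicken microRNAs (miRNAs) gga-miR-10a, gga-miR-10b, gga-miR-99a, gga-miR-100, gga-miR-125b and gga-miR-196, were examined in embryonic leg muscle. They are among the miRNAs of the HOX gene clusters and of the clusters that join miR-99, miR-100 and miR-125 to let-7. They were chosen by probe name, leaving out names that end in a star, and all 6 were found among the 542 miRNAs of the array. Tissue was taken from 14-day-old embryos of 2 strains of meat-type recessive White Rock chickens. Dwarf birds lack a stretch of GHR, which encodes the receptor for growth hormone, and the normal strain served as their control. Both strains had been bred for several generations, and the study's methods give the embryos as female, with skin and bone removed from the muscle. There were 3 dwarf and 3 normal pools, each with RNA from 3 embryos, and 1 dwarf and 1 normal pool were hybridised together on each of 3 two-colour arrays. On arrays 1 and 3 dwarf RNA was labelled with Cy5 and normal RNA with Cy3, and on array 2 the dyes were swapped. Because embryos were pooled and the array is the replicate, n = 3 and p-values measure only the spread between these arrays. In a bulk sample, fewer cells of a type and less RNA per cell cannot be told apart.

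The HOX genes set position along the body axis, and the miR-10 and miR-196 genes lie between them and are transcribed in related domains. In mouse and chick, miR-196 represses HOXB8, a transcript that is kept out of the hindlimb. The miR-99 and miR-100 miRNAs target the growth kinase mTOR in mammalian cells, and miR-125b targets the growth factor gene IGF2 in mouse muscle cells.

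The mature sequences on the array show why some members have to be read together, and each is given 5′ to 3′ with its seed, bases 2 to 8, which largely sets target choice, in capitals.
gga-miR-10a: uACCCUGUagauccgaauuugu
gga-miR-10b: uACCCUGUagaaccgaauuugu
gga-miR-99a: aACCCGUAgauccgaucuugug
gga-miR-100: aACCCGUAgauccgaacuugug
gga-miR-125b: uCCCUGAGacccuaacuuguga
gga-miR-196: uAGGUAGUuucauguuguugg
The miRNAs gga-miR-10a and gga-miR-10b share a seed and differ by the single substitution U12A, counted from the 5′ end with the base of gga-miR-10a first. The miRNAs gga-miR-99a and gga-miR-100 share a second seed and differ by U16A, with the base of gga-miR-99a first. No other probe of the array carried either of these seeds. The seeds of gga-miR-125b and gga-miR-196 were carried by no other probe at all. Outside the 6, the nearest probe by sequence was at least 7 changes away, and it was gga-miR-9* for both miR-10 members. Probes that differ by 1 base can share signal, so the values within each pair are not fully separate.

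In the RefSeq gene table of chicken assembly GRCg7b, used for names and neighbours only, gga-miR-10a lies inside the HOXB3 gene model next to HOXB4. The gene of gga-miR-10b lies next to HOXD4, inside the HOXD3 gene model, with gga-miR-1713 close by. The mature gga-miR-196 has 3 genes, in the HOXA, HOXB and HOXC clusters, beside HOXA10, between HOXB13 and HOXB8, and between HOXC9 and HOXC10. The gene of gga-miR-99a is followed by those of let-7c and 1 copy of gga-miR-125b. The gene of gga-miR-100 is followed by MIR6675, a let-7a gene and the other of the 2 copies of gga-miR-125b. A probe cannot tell the copies apart, so each value of gga-miR-125b and gga-miR-196 is a sum over its genes.

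Over the whole series, a signal is the mean of 6 spots after subtraction of the median empty spot, in scanner units. A miRNA was tested if its mean signal over the 6 pools exceeded 32, and 127 of 542 miRNAs did so, among them all 6 members. Between 90 and 142 miRNAs exceeded 32 in a pool. The median signal of the tested miRNAs ran over 301 to 642 in dwarf pools and over 181.8 to 2600.1 in normal pools. Of 7 skeletal muscle miRNAs on the array, 6 exceeded 32 in every pool, gga-miR-1a and gga-miR-206 among them, and gga-miR-1b exceeded 32 in none, as did none of the 3 neural miRNAs.

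All 6 members exceeded 32 in every dwarf pool and in the normal pools of arrays 1 and 3, while 4 of 6 did so in the normal pool of array 2. On arrays 1, 2 and 3, gga-miR-10a had signals of 73.4, 57.6 and 117 in dwarf pools, against 168, 6.80 and 717 in normal pools. Gga-miR-10b had 100.1, 282 and 474 in dwarf pools, against 284, 108 and 2570 in normal pools. For both, the dwarf pool was the lower one on arrays 1 and 3 and the higher one on array 2, and the ranges of the 2 strains overlapped.

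On arrays 1, 2 and 3, gga-miR-196 had signals of 86.4, 68.1 and 443 in dwarf pools, against 314, 31.3 and 2600.1 in normal pools. Gga-miR-99a had 388, 1221 and 1143 in dwarf pools, against 1026, 290.3 and 4978 in normal pools. Gga-miR-100 had 929, 2624 and 2132 in dwarf pools, against 1903, 848 and 7347 in normal pools. In each of these 3 as well, the strains overlapped and the order of the pools on array 2 was opposite to that on arrays 1 and 3. Gga-miR-125b, with signals of 8028, 13207 and 14015 in dwarf pools against 13344, 8269 and 23393 in normal pools, showed the same order with a narrower spread.

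**Figure D1:**
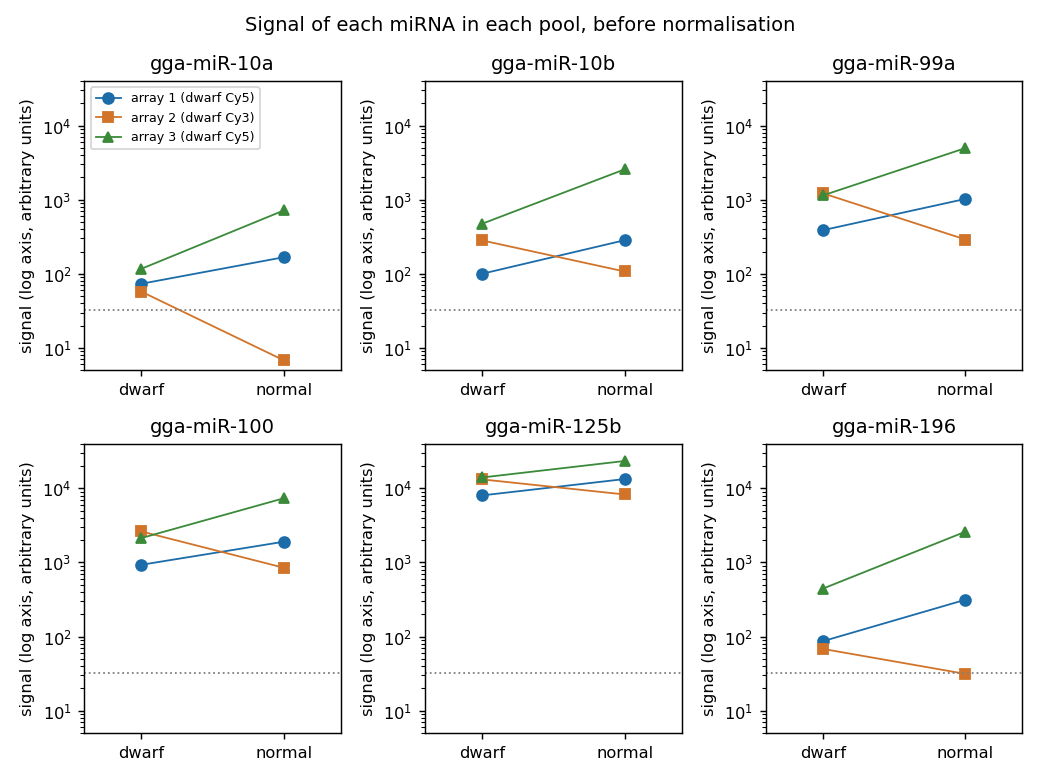
Signal of the 6 miRNAs (log axis, scanner units after subtraction of the median empty spot) in dwarf pools on the left and normal pools on the right, with a line joining the pools of 1 array and a dotted line at 32. For every miRNA the lines of arrays 1 and 3 run up to the normal pool and that of array 2 runs down, and gga-miR-10a at 6.80 and gga-miR-196 at 31.3 lie under the dotted line in the normal pool of array 2.

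Thus the pool labelled with Cy5 was the lower one for all 6 miRNAs on all 3 arrays. Before normalization, Cy5 over Cy3 was below 0 on 3 of 3 arrays for 6 of 6 members and for 89.0% of the 127 tested miRNAs. The fitted Cy5 over Cy3 ratio was lowest for gga-miR-99a, at -1.76 on the log2 scale (SE 0.30), and nearest 0 for gga-miR-125b, at -0.72 (SE 0.28), while the median over the tested miRNAs was -1.20. With limma and Benjamini-Hochberg adjustment over 127 miRNAs, 6 of 6 members passed 0.05 without normalization, beside 85.0% of all. Loess within each array, which removes the trend of the ratio with brightness, was therefore applied before the strains were compared.

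The comparison asked whether these miRNAs differ between the strains before hatching. After loess, gga-miR-196 was the member with the lowest ratio, and no member passed the adjusted threshold. All ratios are log2, dwarf over normal, the other way round from the sample titles, which write normal over dwarf. With limma and Benjamini-Hochberg adjustment, 0 of 6 members and 0.00% of the 127 tested miRNAs passed 0.05, and at an unadjusted 0.05 it was 1 of 6 members and 11.0%. The median of the 6 ratios was -0.06, and that of all tested miRNAs was -0.05.

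Among the HOX cluster members, gga-miR-196 had log2 ratios of -0.39, -0.28 and -0.86 on arrays 1, 2 and 3. All 3 were below 0. The ratio on array 2, with the dyes swapped, rests on a normal pool at 31.3, just under the limit of 32, with coefficients of variation between spots of 38.0% in the dwarf pool and 43.1% in the normal pool, and before normalization it was 0.64. The limma mean was -0.51 (SE 0.17, 95% interval -0.995 to -0.016, n = 3), a level 1.42-fold higher in normal pools, with an unadjusted p of 0.046 and an adjusted p of 0.36. It was the only member under an unadjusted 0.05 in the lower direction, where 5.51% of the tested miRNAs lay. That unadjusted p stayed under 0.05 in 7 of 17 alternatives and ranged from 0.021 to 0.54. It was 0.079 with a dye coefficient, 0.11 without array 1 and 0.086 without array 3. Its normalised signal, which includes the offset of 50, averaged 273 ± 148 in dwarf pools and 426 ± 325 in normal pools (SD, n = 3 each), so that the strains overlapped widely while the ratio within each array did not change sign.

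Gga-miR-10b had ratios of -0.15, -0.06 and -0.74 on arrays 1, 2 and 3, and the limma mean was -0.32 (SE 0.19, 95% interval -0.86 to 0.23, adjusted p = 0.62). These 2 members were below 0 on all 3 arrays, 2 of 6, beside 18.9% of the tested miRNAs. Gga-miR-10a, which shares the seed of gga-miR-10b, had ratios of 0.07, 0.22 and -0.56, of which only that of array 3 was below 0. Its limma mean was -0.09 (SE 0.21, 95% interval -0.68 to 0.50, adjusted p = 0.97). The ratio on array 2 rests on a normal pool with a signal of 6.80, under the limit of 32, and the offset pulls such ratios toward 0.

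Another miRNA of the HOXD cluster, gga-miR-1713, lies in the same gene model as gga-miR-10b. Its ratios were -0.42, -1.34 and 0.29 on arrays 1, 2 and 3, with a limma mean of -0.49 (SE 0.36, adjusted p = 0.73), so it was not below 0 on array 3 where gga-miR-10b was lowest. Gga-miR-1732, which neighbours a miR-196 gene in the HOXA cluster, exceeded 32 in no pool and was not tested. The star strands on the array, gga-miR-10a* and gga-miR-99a*, reached at most 4.96 and 11.5 in dwarf pools and 0.98 and 0.28 in normal pools, so that neither was above the limit.

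Among the let-7-linked members, gga-miR-99a had ratios of -0.23, 0.76 and -0.65 on arrays 1, 2 and 3, and gga-miR-100 had -0.0014, 0.54 and -0.44. In both, array 2, with the dyes swapped, was the highest and array 3 the lowest. The limma mean of gga-miR-99a was -0.04 (SE 0.32, 95% interval -0.95 to 0.88, adjusted p = 0.98). That of gga-miR-100 was 0.03 (SE 0.23, 95% interval -0.63 to 0.70, adjusted p = 0.97). These intervals span from below -0.6 to above 0.6, so that a shared level in the strains is not shown.

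After loess, gga-miR-125b, which is encoded beside both, did not follow them. Its ratios were 0.09, -0.08 and 0.22 on arrays 1, 2 and 3, with array 2 the lowest. In the authors' deposited Lowess ratios it was at -0.23, 0.08 and -0.16. There array 2 was the highest, as it was for gga-miR-99a and gga-miR-100, so the contrast depended on the normalization. The limma mean of gga-miR-125b after loess was 0.08 (SE 0.13, 95% interval -0.30 to 0.45, adjusted p = 0.95). Its SD between arrays, 0.15, was the smallest of the 6, against 0.72 for gga-miR-99a, the largest, and a median of 0.33 over the tested miRNAs. Normalised signals, which were also scaled between arrays, were 12991 ± 1123 in dwarf pools and 12302 ± 257 in normal pools (SD, n = 3 each). The difference was within the spread of the dwarf pools.

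The let-7 miRNAs of the same clusters belong to the broadly expressed family with which these genes are joined. On arrays 1, 2 and 3 the ratios were 0.32, -0.62 and 0.48 for gga-let-7a and 0.06, -0.52 and 0.24 for gga-let-7c. Their sequences differ by 1 base, so the 2 values are not fully separate. A probe may also read copies outside these clusters. Array 2, with the dyes swapped, was the lowest for both let-7 miRNAs, the reverse of gga-miR-99a and gga-miR-100. As Cy5 over Cy3, gga-let-7a was at 0.32, 0.62 and 0.48, with a mean of 0.47 (SE 0.13). Its limma p was 0.025 unadjusted and 0.46 adjusted. Gga-let-7c was at 0.06, 0.52 and 0.24, with a mean of 0.28 (SE 0.15, limma adjusted p = 0.61). Both were thus higher in the Cy5 pool on every array after loess. In the authors' deposited Lowess ratios, too, array 2 was the lowest for both. Before normalization both were lower in the Cy5 pool on every array. Their ratios, dwarf over normal, were then -0.55, 0.20 and -0.54 for gga-let-7a and -0.84, 0.36 and -0.83 for gga-let-7c. Array 2 was then the highest, as it was for gga-miR-99a and gga-miR-100. The part of the dye in the reversal was not tested. For dwarf over normal, the limma means were 0.06 for gga-let-7a and -0.07 for gga-let-7c, and the adjusted p was 0.97 for each. Of the 8 let-7 miRNAs on the array, all tested, none passed the adjusted threshold, 4 had a mean above 0 and 4 below 0, and their median was -0.01.

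**Figure D2:**
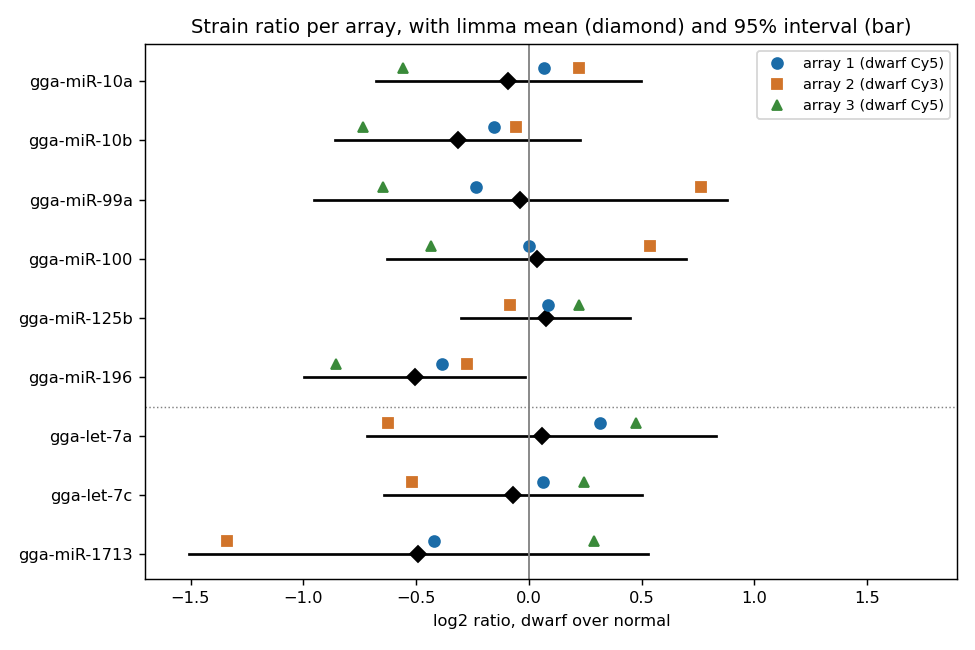
Log2 ratio after loess, dwarf over normal, on each array (coloured points) with the limma mean (diamond) and its 95% interval (bar) for the 6 miRNAs and, under the dotted line, for 2 let-7 miRNAs and gga-miR-1713 of the same gene clusters. Points of gga-miR-196 and gga-miR-10b all lie below 0, and the square of array 2 lies on the right for gga-miR-99a and gga-miR-100 but on the left for gga-let-7a and gga-let-7c.

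The members were then compared by dye on the same normalised values, as Cy5 over Cy3. Gga-miR-99a was lower in the Cy5 pool on all 3 arrays, at -0.23, -0.76 and -0.65, with a mean of -0.55 (SE 0.16). Its unadjusted limma p was 0.032 and its adjusted p 0.46. Gga-miR-100 was at -0.0014, -0.54 and -0.44, with a mean of -0.33 (SE 0.16, limma adjusted p = 0.61). No member passed the adjusted threshold in this comparison (0.00% of the tested miRNAs did), 1 of 6 passed an unadjusted 0.05 beside 9.45% of all, and 2 of 6 were below 0 on all 3 arrays beside 20.5%. The means of the other members were -0.24 for gga-miR-10a, -0.28 for gga-miR-10b, -0.32 for gga-miR-196 and 0.13 for gga-miR-125b. So after loess the sign of the ratio went with the dye on every array for gga-miR-99a and gga-miR-100. Both were lower in the Cy5 pool. The sign also went with the dye for gga-miR-125b, which was higher in the Cy5 pool, at 0.09, 0.08 and 0.22. In the authors' deposited Lowess ratios, dwarf over normal, gga-miR-125b was at -0.23, 0.08 and -0.16 on arrays 1, 2 and 3. There it was lower in the Cy5 pool on every array, so its direction by dye depended on the normalization. Gga-miR-100 was there at 0.15 on array 1, higher in the Cy5 pool, while gga-miR-99a stayed lower on every array. For gga-miR-10b and gga-miR-196 the sign after loess went with the strain, while before normalization both were lower in the Cy5 pool on every array. Some of the values after loess were close to 0. They were -0.0014 for gga-miR-100 on array 1 and a strain ratio of -0.06 for gga-miR-10b on array 2. With a dye coefficient in the strain fit, which rests on 1 array of the swapped orientation, the strain ratio was -0.45 (SE 0.19) for gga-miR-196, -0.25 (SE 0.21) for gga-miR-10b, 0.16 (SE 0.19) for gga-miR-99a and 0.16 (SE 0.19) for gga-miR-100. No member passed the adjusted threshold in that fit either.

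**Figure D3:**
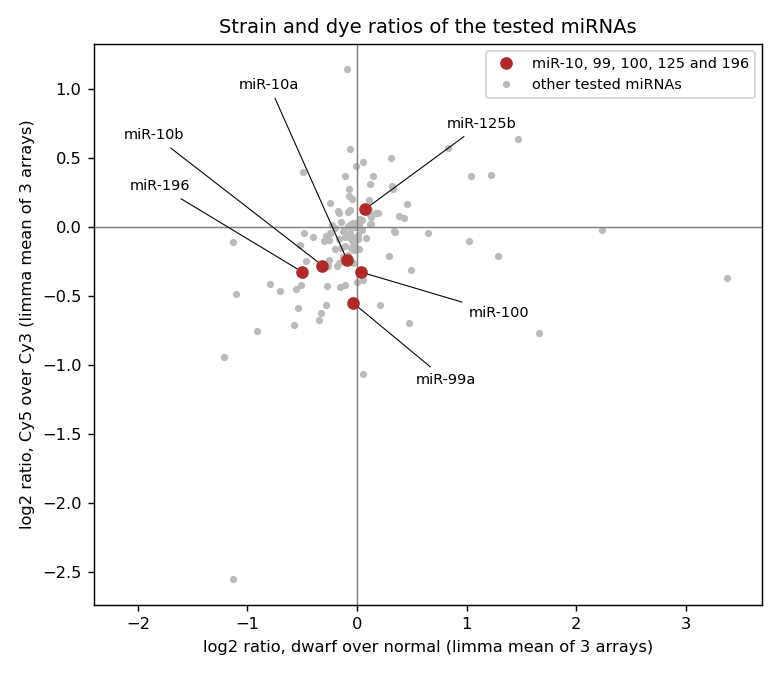
Each point is 1 of the 127 tested miRNAs, with the limma mean log2 ratio of dwarf over normal on the horizontal axis and of Cy5 over Cy3 on the vertical axis, both after loess. Gga-miR-196 lies at -0.51 and -0.32, gga-miR-99a at -0.04 and -0.55, and gga-miR-125b at 0.08 and 0.13, all within the cloud of the other miRNAs.

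Members that differ by 1 base were set against each other within each array. The ratio of gga-miR-10a exceeded that of gga-miR-10b by 0.22, 0.28 and 0.18 on arrays 1, 2 and 3, a mean of 0.22 ± 0.05 (SD, n = 3), with a two-sided exact sign-flip permutation p of 0.25, adjusted over the 2 pairs to 0.50. This is the smallest p that 3 arrays can give. The array 2 value uses the normal pool of gga-miR-10a at 6.80, under the limit of 32. With plain subtraction and a floor of 32 in place of the offset the difference was 0.30, 0.48 and 0.022, a mean of 0.27 ± 0.23 (SD, n = 3). Without normalization it was 0.27, -0.10 and 0.15, a mean of 0.11 ± 0.19 (SD, n = 3). In the authors' deposited Lowess ratios gga-miR-10a was above gga-miR-10b on arrays 1 and 2. On array 3 it was below, at -0.54 against -0.45. The mean difference was thus above 0 in each of these settings, but neither its size nor its sign on single arrays was stable. For gga-miR-99a minus gga-miR-100 the differences were -0.23, 0.22 and -0.21, a mean of -0.07 ± 0.26 (SD, n = 3), with an exact p of 0.75, adjusted to 0.75.

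Likeness of pattern was measured as the root mean square difference of the 3 log2 ratios, as a description over 3 arrays. The nearest tested miRNA to gga-miR-196 was gga-miR-10b, at 0.20, and outside the list it was gga-miR-466, at 0.26. Outside the list, the nearest to both gga-miR-99a and gga-miR-100 was gga-miR-15a, at 0.17 and 0.08. Gga-miR-10a was nearest to gga-miR-130a, at 0.07, gga-miR-10b to gga-miR-222, at 0.19, and gga-miR-125b to gga-miR-1563, at 0.04.

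Precision on an array differed between the members. The 6 spots of gga-miR-196 had coefficients of variation between 15.3% and 43.1% over the pools, and those of gga-miR-10a between 13.8% and 28.8%. Those of gga-miR-125b lay between 4.76% and 9.91%, and those of gga-miR-100 between 3.52% and 14.5%. On the log2 ratio after loess, the SD between spots of gga-miR-196 was 0.14 to 0.24, against 0.31 between arrays, and for gga-miR-99a it was 0.12 to 0.18, against 0.72 between arrays. For gga-miR-125b, the SD between spots reached 0.17, against 0.15 between arrays. The SD between arrays, which includes the difference between pools, exceeded the highest SD between spots in 5 of 6 members, all but gga-miR-125b. An array ratio is a mean of 6 spots, so it varies less from spot noise than single spots do. The SDs are therefore not on the same footing, and the source of the spread between arrays was not tested.

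Markers of other tissues were read in the same pools. The 7 epithelial and skin miRNAs summed to 28207 to 50578 in dwarf pools and 276 to 19574 in normal pools, and gga-miR-183 exceeded 32 in no pool. The 6 that were tested had means above 0, with a median ratio of 1.56. At an unadjusted 0.05, 3 of 6 were higher but 0 passed the adjusted threshold. Over the 127 tested miRNAs, 11.0% passed an unadjusted 0.05 in either direction and 5.51% in the lower direction. The 3 erythroid miRNAs summed to 1298 to 6401 in dwarf pools and 604 to 4824 in normal pools, with gga-miR-144 over 32 in no pool. The 2 that were tested had a median ratio of 1.15. Both were higher at an unadjusted 0.05, beside the same 11.0% in either direction, and neither passed the adjusted threshold. That share includes the epithelial and erythroid markers themselves. The summed signal of the 2 cartilage probes was 106 to 1981 in dwarf pools and 156 to 9665 in normal pools, with gga-miR-140 over 32 in no pool. The other probe, gga-miR-140*, had ratios of -3.48, 2.13 and -2.05 on arrays 1, 2 and 3. Its mean was -1.13, with array 2 above 0. As Cy5 over Cy3, the mean of gga-miR-140* was -2.55, and it was lower in the Cy5 pool on every array. For white blood cells, the sum of 4 probes was -4.61 to 147 in dwarf pools and 35.2 to 367 in normal pools. The 6 tested skeletal muscle miRNAs had a median ratio of -0.18, with 5 means below 0 and 1 above, beside 80 below 0 of the 127 tested. Their medians on arrays 1, 2 and 3 were -0.84, 0.42 and -0.25, and 0 passed an unadjusted 0.05. The part of these tissues in the ratios of the 6 members was not tested.

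Of 17 alternatives, 6 keep the ratio and change only its test or filter, and 11 give another ratio, 3 of them by leaving out 1 array. Gga-miR-196 stayed below 0 in all 11, between -1.07 and -0.39 with all arrays and between -0.62 and -0.33 with 1 array left out. Gga-miR-10b also stayed below 0, between -0.80 and -0.23 with all arrays and between -0.45 and -0.11 with 1 array left out. Relative to the median of all tested miRNAs, gga-miR-196 lay between -0.66 and -0.40 over the 8 alternatives that recompute the ratios with all arrays. The other 4 members changed sign in at least 2 of the 11. For gga-miR-100 and gga-miR-125b this includes median centring and no normalization, which lowered the median of all tested miRNAs itself. Relative to that median gga-miR-100 lay above it in all 8, by 0.077 to 0.20, and gga-miR-125b between -0.0079 and 0.24, below it in 1 of 8. These differences are small beside the intervals given above, and no direction is given for the 4.

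**Figure D4:**
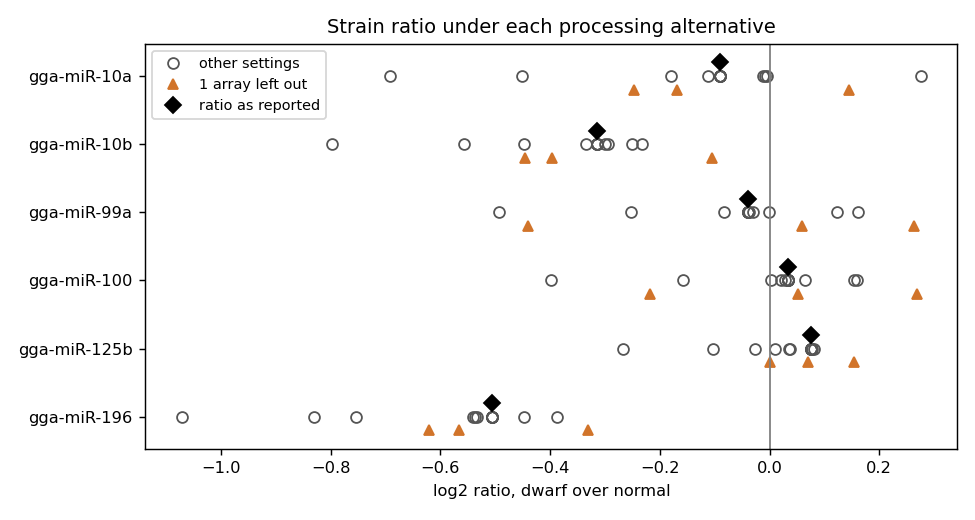
Log2 ratio, dwarf over normal, of the 6 miRNAs as reported (diamond), with 1 array left out (triangles) and under the other processing settings (circles, of which 6 settings keep the reported ratio). All symbols of gga-miR-196 and gga-miR-10b lie below 0, while those of gga-miR-10a, gga-miR-99a, gga-miR-100 and gga-miR-125b fall on both sides.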

How the data were processed

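The authors deposited linear spot intensities (Cy3 and Cy5, commas inside numbers removed here) and, per miRNA and array, log2 ratios made by Lowess, which served as an alternative. Set against the channels, those ratios follow dwarf over normal, with Pearson r of 0.965, 0.860 and 0.912 over 127 miRNAs on arrays 1, 2 and 3. Their medians over all miRNAs with a deposited ratio, not only the 127, were 0.04, 0.03 and -0.13. How the deposited ratios were centred is not given in the sources used here. No background per spot was used here. Intensities were corrected with normexp (offset 50) on all spots, normalised by loess within arrays with weight 0 for controls, and averaged over 6 spots. The offset understates ratios of dim miRNAs. Pool signals are spot means minus the median of 424 empty spots. limma 3.58.1 in R 4.3.3 (lmFit, eBayes, 2 residual and 1.82 prior degrees of freedom) was fitted over 127 miRNAs with Benjamini-Hochberg adjustment. It was also run on simulated ratios drawn without a dye effect, so that run says nothing about the dye differences seen here. Ratios were taken within arrays because each array pairs 1 dwarf and 1 normal pool. Normalised signals of single pools were also scaled between arrays with Aquantile, which gives all arrays the same distribution of average brightness. On these values, the pools of 1 array deviated together from their strain means (correlations 0.613, 0.234 and 0.307). Those values had already been normalised within and between arrays, so the correlations are no separate test of the pairing. Named miRNAs are the members, their let-7 and HOX cluster neighbours, their star strands, the nearest probe by sequence and the nearest ratio pattern. The members and lists were chosen with earlier results of these data known. Alternatives were other backgrounds, scalings, filters and fits, the authors' table, the methods' t-test and each array left out.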

Additional observations from a re-analysis of the deposited data

How the results depend on the processing

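Members past the adjusted threshold numbered 0 under every alternative. Over all tested miRNAs the count of 0 became 2 with median centring, 3 with a dye coefficient and 1 by the methods' t-test at its unadjusted threshold of 0.01 (0 after Benjamini-Hochberg). Median centring and no normalization moved the median of all tested miRNAs to -0.26 and -0.50, and under these gga-miR-100 turned to -0.16 and -0.40 and gga-miR-125b to -0.027 and -0.27. With no normalization the median of the members moved to -0.59 and 6 members passed in Cy5 over Cy3. In the authors' table gga-miR-10a turned to 0.28 and gga-miR-125b to -0.10. Gga-miR-99a turned to 0.16 with a dye coefficient and to 0.12 with loess on detected miRNAs. With 1 array left out, ratios ranged from -0.25 to 0.14 for gga-miR-10a, from -0.44 to 0.26 for gga-miR-99a and from -0.22 to 0.27 for gga-miR-100. Gga-miR-10a was above 0 without array 3, gga-miR-99a without array 1 or 3, and gga-miR-100 below 0 without array 2. The causes were not tested. With separate channels and no replicate block the ratios, such as -0.51 for gga-miR-196, were the same and the smallest adjusted p of the members was 0.997, against 0.36 with the pairing. Depth of signal limits gga-miR-10a and gga-miR-196, whose normal pool on array 2 gave signals below 32.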
